A study of Mus musculus with 14 samples.

Results

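The 49 genes described here are collagens and the proteins that build, cross-link and remodel the extracellular matrix of the lung, out of 13923 genes named on the arrays. They were listed by symbol, and each was read from the probe that carries its current or an older symbol, taking the brightest probe by mean over all arrays where a gene has more than 1. Of the 49 genes, 41 were measured. No probe names Fbn1, Mfap4, Has1, Fn1, Tnc, Spp1 or Mgp alone or with another gene, and Col6a2 appears only on a probe that also names Lca5l, so these 8 genes were not read.

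RNA came from right lung tissue of adult mice in 4 groups. C57/BL6 wild-type mice and jnk1-/- mice, which lack c-Jun-NH2-terminal kinase-1 in every cell, were either ventilated at a tidal volume of 10 ml/kg with a PEEP of 2 cmH2O for 8 hours or served as controls without ventilation. Each genotype had 3 control and 4 ventilated mice, all C57/BL6 by background and, per the methods, of like age and sex across groups, with 1 array for each mouse. Controls were killed directly after anesthesia, so ventilation and the hours under anesthesia cannot be told apart. The wild-type mice were purchased and the jnk1-/- line was made in another laboratory, so genotype and origin cannot be told apart.

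Fibrillar collagens give the lung its tensile strength, whereas type IV collagen and the laminins form the separate sheet-like networks of the basement membranes under epithelium and endothelium, which nidogen ties together. Elastin on a scaffold of microfibrils provides recoil, and lysyl oxidases make the covalent cross-links that fix both collagen and elastin. Small leucine-rich proteoglycans coat collagen fibrils and govern their width. Because lung tissue was measured without separating its cells, fewer cells of a type and less RNA per cell cannot be told apart at any gene below.

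Values are log2 intensities after normalization between arrays, and a difference of 1 on this scale is a 2-fold change. Array medians before normalization lay between 4.98 and 6.37, and between 1.86% and 10.7% of probes of an array were at the lowest deposited value, with the highest shares in wild-type controls 2 and 3. Of the 41 measured genes, 30 were above the floor of the authors' normalized table on every array, Loxl2 was at that floor on 3 arrays and the other 10 were at it on 8 or more. The probe for the targeted gene, Mapk8, was dim in all groups, at 2.68 to 3.23 in wild-type controls and at −0.36 to 2.91 in jnk1-/- controls, and checks the genotype little, since the sources do not say where it lies relative to the deleted part (limma, log2 difference −1.48, adjusted p = 0.368). The jnk1-/- controls stood apart from the other groups in markers of skeletal muscle and squamous epithelium, and values for these are given after the results by gene.

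Lox was higher and Lum lower in ventilated than in control lungs of both genotypes. In wild-type lungs 4 of the 41 genes passed an adjusted p of 0.05 (9.76%), against 3.73% of all probes. Lox rose (2.44% of the genes, against 2.22% of probes), and Mfap5, Lum and Matn4 fell (7.32%, against 1.51%). In jnk1-/- lungs 11 of the 41 genes passed (26.8%), against 11.7% of all probes. The 9 that rose, 22% of the genes against 6.72% of probes, were the type IV collagens Col4a1 and Col4a2, the basement membrane genes Nid1, Lama2 and Lamb1, the fibrillar collagens Col1a1, Col5a1 and Col5a2, and Lox. The 2 that fell, Lum and Fmod, were 4.88% of the genes against 5.02% of probes. The calls of Lum, Mfap5, Col5a1, Col5a2, Col1a1 and Fmod were lost on leaving out any of 2 or more single arrays, as given for each below. The jnk1-/- call of Col4a2 was lost without jnk1-/- control 2. The median log2 difference of the 41 genes was 0.04 in wild-type lungs and 0.35 in jnk1-/- lungs, where the medians of all probes were 0.08 and −0.04. In jnk1-/- lungs the 4 ventilated arrays lay above all 3 controls for 16 genes (39%), against 12.3% of probes, and below them for 5 genes (12.2%), against 11.2%. In wild-type lungs the same counts were 5 genes above (12.2% against 11.3% of probes) and 6 below (14.6% against 10.5%). The ventilation difference had the same sign in both genotypes for 29 of the 41 genes (70.7%) and for 61.4% of all probes, in comparisons that share no array.

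**Figure D1:**
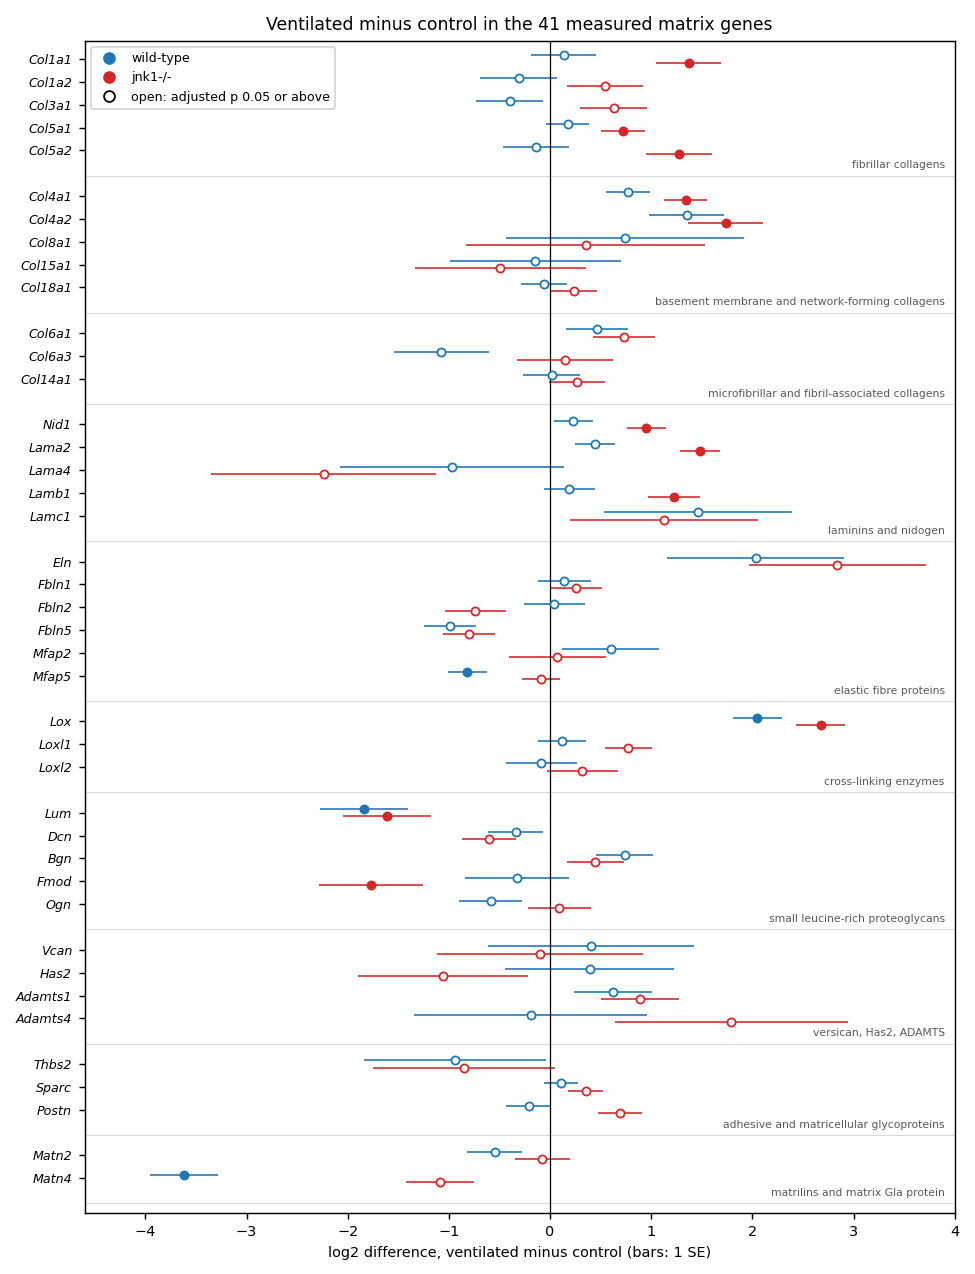
Log2 difference of ventilated minus control lungs (horizontal axis) with 1 SE for each of the 41 measured genes, in wild-type (blue) and jnk1-/- mice (red), by role; filled points have an adjusted p under 0.05 by limma. Filled red points at Col1a1, Col5a1, Col5a2, Col4a1, Col4a2, Nid1, Lama2, Lamb1 and Lox lie to the right of 0, whereas the filled blue points are Lox on the right and Mfap5, Lum and Matn4 on the left.

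The differences of every measured gene are shown by role in the plot of ventilated minus control lungs. Col4a1, Col4a2, Nid1, Lama2 and Lamb1 had errors of 0.19 to 0.37 on the log2 scale, while Col8a1, Col15a1, Lama4, Eln, Vcan, Has2, Adamts4 and Thbs2, whose probes were near the floor, had errors of 0.84 to 1.18. Fmod and Matn4, also near the floor, had errors of 0.51 and 0.33. For Matn4, 3 of the 4 ventilated wild-type values were raised to the same lowest value of −0.63, which narrows its error.

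Col4a1 and Col4a2 encode the α1 and α2 chains that assemble into the main type IV collagen of basement membranes. They lie head to head on mouse chromosome 8, and their annotated spans overlap by 85 bases in RefSeq (GRCm38.p6). Col4a1 was at 10.54, 9.88 and 10.17 in wild-type controls and at 10.69, 11.18, 10.97 and 11.03 in ventilated wild-type lungs. It was at 10.13, 9.54 and 9.56 in jnk1-/- controls and at 11.19, 10.90, 11.28 and 10.98 in ventilated jnk1-/- lungs. Every ventilated array was above every control array of its genotype. The difference passed the test in jnk1-/- lungs (1.34 ± 0.22 SE, 2.53-fold, adjusted p = 0.0032) and missed it in wild-type lungs (0.77 ± 0.22, adjusted p = 0.0696), where the authors' normalized values passed (adjusted p = 0.0418).

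Col4a2 was also higher on the ventilated arrays of each genotype. Wild-type controls were at 7.36, 8.60 and 9.09 and ventilated wild-type lungs at 9.49, 10.02, 9.13 and 10.16. The jnk1-/- controls were at 8.87, 8.37 and 8.75 and the ventilated jnk1-/- lungs at 10.58, 10.46, 10.38 and 10.16. The groups did not overlap within either genotype, and wild-type control 1 was more than 1 log2 unit below the next control. Col4a2 rose in jnk1-/- lungs by 1.73 ± 0.37 (3.33-fold, adjusted p = 0.0119), and its difference in wild-type lungs was 1.35 ± 0.37 (adjusted p = 0.0654). The test of the difference between genotypes passed for neither Col4a1 (0.57, 95% interval −0.10 to 1.23, adjusted p = 0.458) nor Col4a2 (0.38, −0.75 to 1.52, adjusted p = 0.79).

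**Figure D2:**
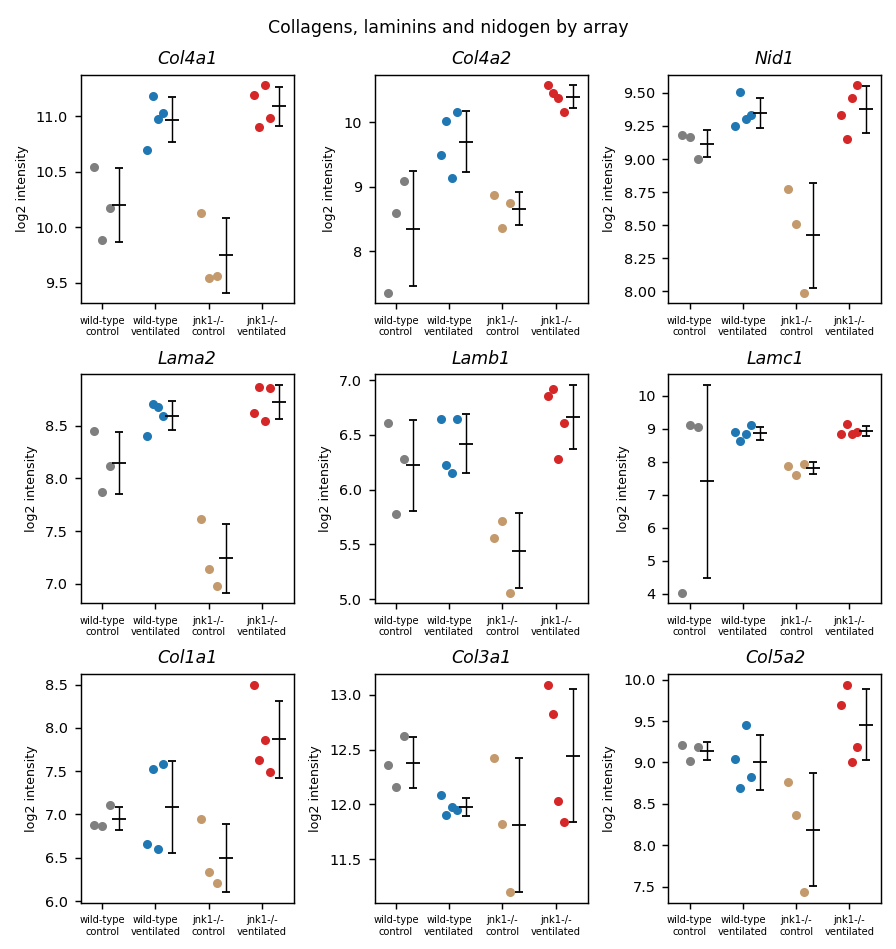
Log2 intensity on each array (points) of 9 collagen, laminin and nidogen genes in the 4 groups, with the mean and SD in black; each panel has its own vertical axis. For Col4a1, Col4a2, Nid1, Lama2, Lamb1 and Lamc1 the 4 ventilated jnk1-/- arrays lie above the 3 jnk1-/- controls, and wild-type control 1 of Lamc1 lies alone at 4.03.

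Nid1, Lama2 and Lamb1 are the other basement membrane genes that rose in jnk1-/- lungs. None of them passed with ventilation in wild-type lungs. A window of 250 bases before 1 RefSeq start of each gene is shown here because these genes rose together in jnk1-/- lungs. For Nid1 this start is the edge of the annotated gene, whereas for Lama2 and Lamb1 it lies 249 and 147 bases inside it, so that almost all of the Lama2 window and part of the Lamb1 window are within the annotated gene. Each window is on the gene's own strand in GRCm38.p6, with the CCAAT box and its reverse complement in capitals. The windows are chr13:13437352-13437601 (plus strand) for Nid1, chr10:27616943-27617192 (minus strand) for Lama2 and chr12:31265043-31265292 (plus strand) for Lamb1.
Nid1: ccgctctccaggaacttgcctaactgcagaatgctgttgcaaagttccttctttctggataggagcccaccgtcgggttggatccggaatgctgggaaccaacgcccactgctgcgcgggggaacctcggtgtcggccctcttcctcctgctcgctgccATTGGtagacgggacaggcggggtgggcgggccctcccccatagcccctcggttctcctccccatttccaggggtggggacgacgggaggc
Lama2: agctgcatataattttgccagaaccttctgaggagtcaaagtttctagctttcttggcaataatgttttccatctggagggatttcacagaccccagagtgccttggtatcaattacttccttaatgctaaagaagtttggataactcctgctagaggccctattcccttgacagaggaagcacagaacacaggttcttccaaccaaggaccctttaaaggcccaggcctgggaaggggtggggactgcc
Lamb1: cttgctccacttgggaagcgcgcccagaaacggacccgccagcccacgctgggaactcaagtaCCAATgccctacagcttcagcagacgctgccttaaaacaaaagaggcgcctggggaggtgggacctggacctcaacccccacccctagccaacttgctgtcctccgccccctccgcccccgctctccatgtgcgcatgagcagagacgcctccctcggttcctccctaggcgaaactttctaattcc
The box was found once in the Nid1 and once in the Lamb1 window and not in that of Lama2, and the windows of Col4a1 and Col4a2, which lie inside each other's annotated transcripts and are not printed, hold it once each. On either strand, CCAAT occurs in 33.8% of all 32851 RefSeq windows of this length, and for 11 of the 26 measured genes with a window. GGGCGG, the core of an Sp1 site, occurred 2 times in the Lamb1 and Col4a2 windows and 1 time in that of Nid1, against 32.7% of all windows with at least 1. It was present for 15 of the 26 measured genes with a window. TGANTCA, the AP-1 motif that c-Jun binds, was in none of these 5 windows and in 1 of the 26 measured genes with a window (Col6a1), and is present in 6.75% of all windows. TATAAA was in none of the 5 and in 12.4% of all. None of these 4 motifs contains another, and a match or its absence describes the window only.

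Lama2 encodes the laminin α2 chain. It was at 8.45, 7.87 and 8.12 in wild-type controls and at 8.40, 8.71, 8.68 and 8.59 in ventilated wild-type lungs, and these groups overlapped. In jnk1-/- mice it was at 7.61, 7.14 and 6.98 in controls and at 8.62, 8.87, 8.55 and 8.86 after ventilation. All 3 jnk1-/- controls were below each of the other 11 arrays. Lama2 rose with ventilation in jnk1-/- lungs (1.48 ± 0.20, 2.79-fold, adjusted p = 0.00115) and was lower in jnk1-/- than in wild-type controls (−0.91 ± 0.21, adjusted p = 0.0379). Ventilated lungs of the 2 genotypes differed by 0.13, with an interval of −0.28 to 0.53. The difference of the ventilation effect was 1.03 ± 0.28 (adjusted p = 0.162), and in the authors' normalized values it was 1.23 (adjusted p = 0.0271). The call between the controls was lost in 14 of 26 alternatives, among them leaving out any wild-type control (adjusted p of up to 0.107 over the 9 single arrays whose absence ended it), while the jnk1-/- ventilation call was lost only with the methods' t-test.

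Lamb1, the laminin β1 chain, followed the same order. Wild-type controls were at 6.61, 5.78 and 6.28, ventilated wild-type lungs at 6.65, 6.23, 6.15 and 6.65, jnk1-/- controls at 5.56, 5.71 and 5.06, and ventilated jnk1-/- lungs at 6.86, 6.92, 6.28 and 6.61. The jnk1-/- controls again lay below every other array. The rise in jnk1-/- lungs was 1.22 ± 0.26 (2.33-fold, adjusted p = 0.0109), and the wild-type difference was 0.19 ± 0.26. The test of the difference between genotypes did not pass (1.03, interval 0.24 to 1.82, adjusted p = 0.26). Nid1 lay at 9.0 to 9.18 in wild-type controls, 9.25 to 9.51 in ventilated wild-type lungs, 7.99 to 8.77 in jnk1-/- controls and 9.15 to 9.56 in ventilated jnk1-/- lungs. It rose in jnk1-/- lungs by 0.95 ± 0.19 (adjusted p = 0.00973), with a wild-type difference of 0.23 ± 0.19. Nor did the test of the difference between genotypes pass for Nid1 (0.72, interval 0.12 to 1.32, adjusted p = 0.29).

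Lamc1, the laminin γ1 chain that pairs with both, was at 7.87, 7.59 and 7.93 in jnk1-/- controls and at 8.83, 9.13, 8.83 and 8.90 in ventilated jnk1-/- lungs. These groups were apart. In wild-type controls it was at 4.03, 9.12 and 9.06, and in ventilated wild-type lungs at 8.88, 8.62, 8.84 and 9.10. The first wild-type control was far below all 13 other arrays, which widened the error shared by all groups to 0.93. The jnk1-/- difference of 1.13 then had an adjusted p of 0.502, and 0.00282 without that array. Without it, the wild-type difference changed from 1.46 to −0.23, and neither value passed. Lama4 was at the authors' floor on 12 of the 14 arrays, with values above it on jnk1-/- controls 1 and 2 (4.38 and 4.40). It passed in jnk1-/- lungs only where the floor was higher, in the authors' values (adjusted p = 0.0391) and with a floor at the 25th percentile.

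Among the fibrillar collagens, 3 of 5 rose with ventilation in jnk1-/- lungs, and in wild-type lungs, where the 5 differences ran from −0.40 to 0.17, none passed by limma with or without adjustment. Col1a1, the α1 chain of type I collagen, was at 6.88, 6.87 and 7.11 in wild-type controls and at 6.66, 7.52, 6.60 and 7.58 in ventilated wild-type lungs. It was at 6.95, 6.33 and 6.21 in jnk1-/- controls and at 8.50, 7.63, 7.86 and 7.49 in ventilated jnk1-/- lungs. The wild-type groups overlapped and the jnk1-/- groups did not. The jnk1-/- difference was 1.37 ± 0.32 (2.58-fold, adjusted p = 0.0183). This call was lost without jnk1-/- control 2 or 3 (adjusted p of up to 0.0656). The test of the difference between genotypes did not pass for Col1a1 (1.23, interval 0.25 to 2.22, adjusted p = 0.275).

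Col5a2, a chain of the type V collagen that nucleates type I fibrils, was at 9.21, 9.02 and 9.19 in wild-type controls and at 9.04, 8.69, 9.45 and 8.82 after ventilation. In jnk1-/- controls it was at 8.76, 8.37 and 7.43, and after ventilation at 9.69, 9.94, 9.01 and 9.19. Again only the jnk1-/- groups were apart (1.27 ± 0.32, adjusted p = 0.0268). The test of the difference between genotypes did not pass (1.41, interval 0.41 to 2.41, adjusted p = 0.226). The Col5a2 call was lost without jnk1-/- control 2 or 3 or ventilated jnk1-/- array 1 or 2 (adjusted p of up to 0.0815). Its partner Col5a1 rose from 6.07 to 6.71 in jnk1-/- controls to 6.98 to 7.43 in ventilated lungs (0.72 ± 0.21, adjusted p = 0.0497), at the edge of the threshold. The Col5a1 call was lost in 20 of 26 alternatives, among them leaving out any 1 of 12 arrays. A dimmer Col5a1 probe, named by an older symbol, had a difference of −0.33 (adjusted p = 0.71), so the 2 probes disagree. Col3a1 and Col1a2, the type III chain and the second type I chain, had jnk1-/- differences of 0.63 ± 0.33 and 0.54 ± 0.38 that did not pass. Col3a1 spread widely in the jnk1-/- groups, from 11.20 to 12.42 in controls and from 11.84 to 13.09 after ventilation.

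Collagens of other networks did not pass in any comparison by limma, though at an unadjusted p of 0.05 Col6a1 did in jnk1-/- lungs and Col6a3 in wild-type lungs and between the controls. Col6a1, a chain of the beaded type VI filaments, had differences of 0.47 ± 0.30 in wild-type and 0.73 ± 0.30 in jnk1-/- lungs, where its groups were apart. Col6a3 was at 8.62 to 9.64 in wild-type controls and at 7.86 to 8.75 after ventilation (−1.07 ± 0.47, adjusted p = 0.226), and at 6.71 to 9.10 in jnk1-/- controls. Col14a1 and Col18a1 stayed within differences of −0.06 to 0.26 in both genotypes. Col8a1 and Col15a1 were at the authors' floor on most arrays, and no direction is given for them.

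Lox, the lysyl oxidase that oxidises lysines of collagen and elastin so that they cross-link, rose on every ventilated array. It was at 6.05, 6.37 and 6.78 in wild-type controls and at 8.55, 8.07, 8.49 and 8.68 in ventilated wild-type lungs. It was at 5.91, 6.04 and 6.05 in jnk1-/- controls and at 8.25, 8.52, 9.05 and 8.89 in ventilated jnk1-/- lungs. The lowest ventilated array was more than 1 log2 unit above the highest control. The rise was 2.05 ± 0.24 in wild-type lungs (4.14-fold, adjusted p = 0.00129) and 2.67 ± 0.24 in jnk1-/- lungs (6.38-fold, adjusted p = 1.07e-04). The difference between these rises was 0.63, with an interval of −0.11 to 1.36 (adjusted p = 0.462). Its relatives did not pass by limma on the values used here. Loxl1, an elastin cross-linking enzyme, differed by 0.12 ± 0.23 in wild-type and by 0.77 ± 0.23 in jnk1-/- lungs (adjusted p = 0.0528, and 0.0339 in the authors' values), and Loxl2 by −0.09 ± 0.35 and 0.32 ± 0.35.

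**Figure D3:**
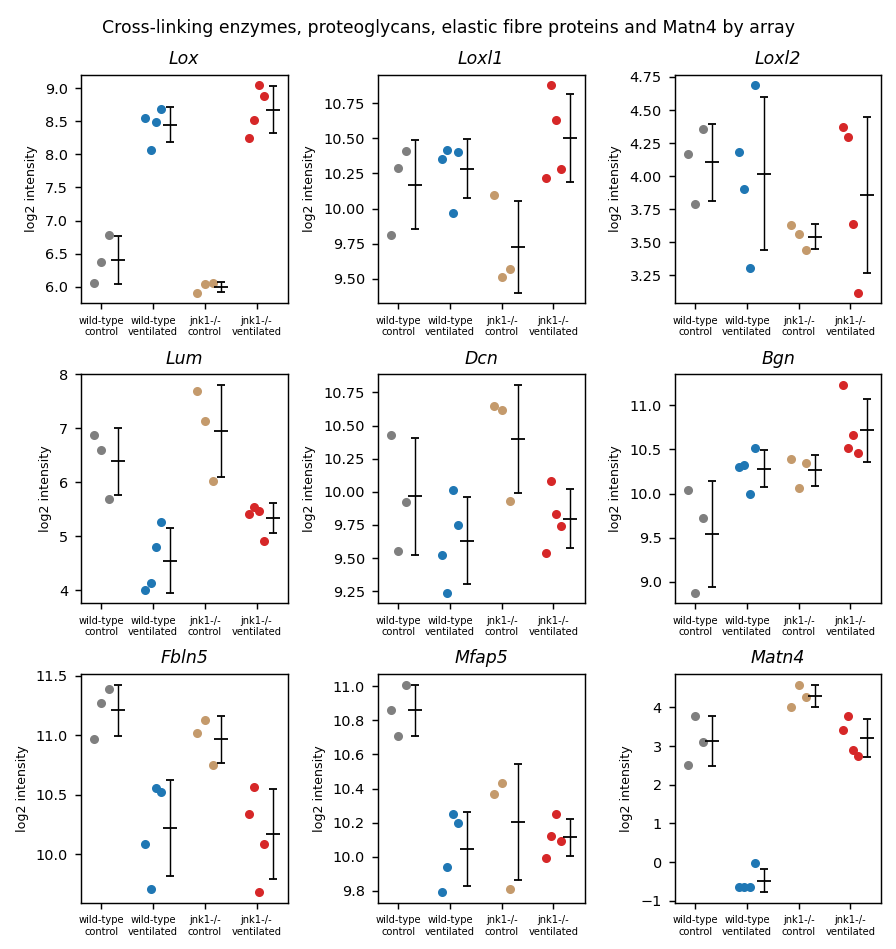
Log2 intensity on each array (points) of 9 cross-linking, proteoglycan, elastic fibre and matrilin genes in the 4 groups, with the mean and SD in black; each panel has its own vertical axis. Lox is above 8 on all 8 ventilated arrays and below 7 on all 6 controls, Lum is lower on ventilated arrays in both genotypes, and Matn4 lies near the lower limit only on the 4 ventilated wild-type arrays.

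Lum encodes lumican, a keratan sulfate proteoglycan that limits fibril thickness. Wild-type controls were at 6.88, 6.61 and 5.69 and ventilated wild-type lungs at 4.00, 4.14, 4.81 and 5.27. The jnk1-/- controls were at 7.70, 7.14 and 6.02 and the ventilated jnk1-/- lungs at 5.42, 5.54, 5.48 and 4.92. No ventilated array reached a control of its genotype. Lum fell by 1.84 on the log2 scale in wild-type lungs (SE 0.43, 3.58-fold, adjusted p = 0.0393) and fell by 1.61 in jnk1-/- lungs (SE 0.43, 3.06-fold, adjusted p = 0.033). The interval of the difference between genotypes was −1.11 to 1.56. The fall kept its direction in all 26 alternatives, but the call was lost in 13 of them in wild-type lungs and in 9 in jnk1-/- lungs. Leaving out each of the 14 arrays in turn gave differences of −2.19 to −1.60 in wild-type and −2.08 to −1.24 in jnk1-/- lungs. The wild-type call ended without wild-type control 1 or 2, ventilated wild-type array 1, 2 or 3, jnk1-/- control 2, or ventilated jnk1-/- array 2 or 4 (adjusted p of up to 0.125). The jnk1-/- call ended without jnk1-/- control 1 or 2 or ventilated jnk1-/- array 1, 2 or 4 (adjusted p of up to 0.132).

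Of the other proteoglycans of this class, only Fmod passed. Decorin (Dcn) had differences of −0.34 ± 0.27 and −0.60 ± 0.27 in wild-type and jnk1-/- lungs, biglycan (Bgn) of 0.74 ± 0.28 and 0.45 ± 0.28, and osteoglycin (Ogn) of −0.59 ± 0.31 and 0.09 ± 0.31, and none of these passed. Fibromodulin (Fmod), a relative of lumican, was dim. It was at 3.72, 3.76 and 2.58 in jnk1-/- controls and at 2.37, 1.29, 2.31 and 0.37 in ventilated jnk1-/- lungs, where all 4 arrays were at the authors' floor. In wild-type mice it was at 3.37, 2.93 and 3.56 in controls and at 3.59, 2.06, 3.22 and 2.95 after ventilation, which overlapped. The jnk1-/- difference of −1.77 ± 0.51 passed (adjusted p = 0.045), but in the authors' values, which have the floor, it was −0.32 (adjusted p = 0.107). The call was lost in 20 of 25 alternatives, among them leaving out any 1 of 10 arrays.

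Elastic fibre genes had 1 member that passed. Mfap5, a microfibril-associated glycoprotein, lay at 10.71 to 11.01 in wild-type controls and at 9.79 to 10.25 in ventilated wild-type lungs, and fell by 0.82 (SE 0.19, adjusted p = 0.0382). This call was lost in 15 of 26 alternatives, among them leaving out any 1 of the 7 wild-type arrays (adjusted p of up to 0.142). In jnk1-/- mice it lay at 9.81 to 10.43 in controls and at 9.99 to 10.25 after ventilation, with a difference of −0.09 ± 0.19. The test of the difference between genotypes did not pass (0.73, interval 0.14 to 1.31, adjusted p = 0.281). Fbln5, which guides elastin onto microfibrils, was at 10.97 to 11.39 in wild-type controls and 9.71 to 10.56 after ventilation, and at 10.75 to 11.13 in jnk1-/- controls and 9.68 to 10.57 after ventilation. Its groups were apart in both genotypes, with differences of −0.99 ± 0.26 (adjusted p = 0.0561) and −0.80 ± 0.26 (adjusted p = 0.0661), which fall short of the threshold here and pass it in the authors' values (adjusted p of 0.037 and 0.0439). Fbln1 and Mfap2 overlapped in every comparison, although a dimmer Fbln1 probe differed by 2.46 in jnk1-/- lungs (adjusted p = 0.0334) where the brighter one differed by 0.26. Fbln2 had a jnk1-/- difference of −0.74 ± 0.30 that did not pass. Eln itself was at the authors' floor on 13 of the 14 arrays, so its difference of 2.84 in jnk1-/- lungs (adjusted p = 0.0561) rests on values below that floor, and both jnk1-/- groups were wholly at the floor of the authors' table.

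Versican, hyaluronan synthase 2 and the versican-cleaving proteases Adamts1 and Adamts4 did not pass in any comparison by limma, and at an unadjusted p of 0.05 only Adamts1 did, in jnk1-/- lungs. Adamts1 was the only one of these above the floor throughout, with differences of 0.62 ± 0.38 in wild-type and 0.89 ± 0.38 in jnk1-/- lungs. Of the matricellular proteins, Sparc, a collagen-binding glycoprotein, lay between 13.44 and 14.30 on all arrays, and Thbs2 was at or near the floor. The jnk1-/- groups of Sparc were apart, but the difference did not pass (0.35 ± 0.17, adjusted p = 0.216), and its wild-type difference was 0.11 ± 0.17.

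Postn, or periostin, a protein that fibroblasts secrete and that binds collagen and Bmp1, differed between the control groups. It was at 10.43, 9.65 and 9.61 in wild-type controls and at 8.86, 9.0 and 8.58 in jnk1-/- controls. After ventilation it was at 9.39, 9.73, 9.71 and 9.88 in wild-type and at 9.42, 9.71, 9.38 and 9.50 in jnk1-/- lungs. The jnk1-/- controls were below all other arrays. The control difference was −1.08 ± 0.24 (2.12-fold, adjusted p = 0.0282), and ventilated jnk1-/- lungs exceeded their controls by 0.69 ± 0.22 (adjusted p = 0.0633, and 0.0331 in the authors' values). The control call was lost in 8 of 26 alternatives, among them leaving out wild-type control 2 or any jnk1-/- control (adjusted p of up to 0.0833).

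Matn4, matrilin-4, an adaptor protein of filamentous networks, was lower in ventilated than in control wild-type lungs on a dim probe. It was at 2.50, 3.79 and 3.12 in wild-type controls and at −0.63, −0.63, −0.63 and −0.02 in ventilated wild-type lungs, where −0.63 is the lower limit set on all values. The jnk1-/- controls were at 4.02, 4.59 and 4.28 and the ventilated jnk1-/- lungs at 3.43, 3.79, 2.89 and 2.74. The ventilated wild-type arrays were below all others. The fitted wild-type difference of −3.62 passed (adjusted p = 3.03e-04), but the 3 equal values at that limit narrow its error. The difference also owes its size to that limit and ran from −8.46 to −0.04 over the alternatives. In the authors' values, where 8 of the 14 arrays were at the floor, it was −0.45 (adjusted p = 0.381). The jnk1-/- difference was −1.09 ± 0.33 (adjusted p = 0.056). Its relative Matn2 had a wild-type difference of −0.55 ± 0.27 that did not pass.

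**Figure D4:**
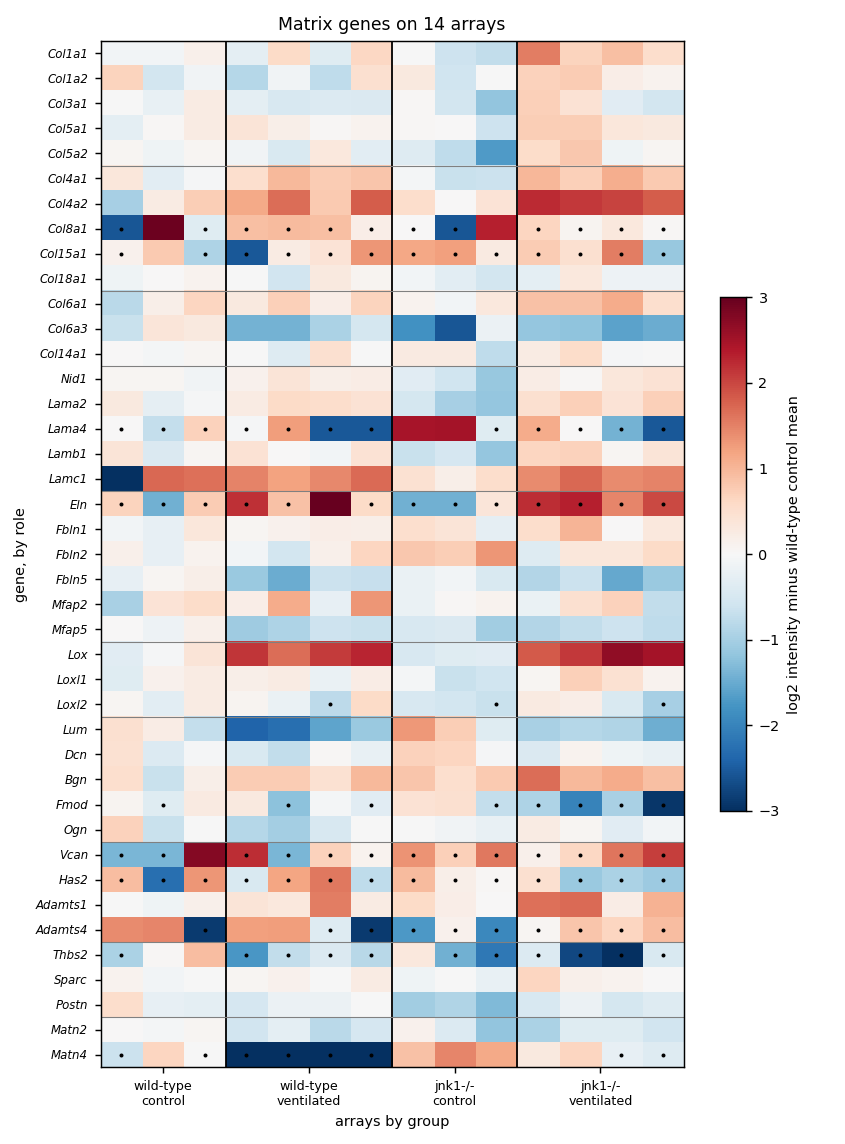
Log2 intensity of the 41 genes (rows, by role) on the 14 arrays (columns, by group) minus the gene's wild-type control mean, on a colour scale from −3 to 3; black dots mark values at the floor of the authors' table. Lox is red on all ventilated arrays and Lum blue, and Postn, Lama2, Lamb1 and Nid1 are blue on the jnk1-/- controls.

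Between the control groups, 2 of the 41 genes passed (4.88%), against 4.07% of all probes, and both, Lama2 and Postn, were lower in jnk1-/- lungs, as were 2.18% of probes. In all, 7 genes were lower on all 3 jnk1-/- controls than on all 3 wild-type controls (17.1% against 13.1% of probes), namely Col5a2, Nid1, Lama2, Lamb1, Mfap5, Loxl2 and Postn, and 3 were higher (7.32% against 13.5%), namely Fbln2, Bgn and Matn4. By limma no gene was higher past the adjusted threshold, as 1.89% of probes were, and 3 were at an unadjusted p of 0.05 (7.32%, against 11.1% of probes). The authors' values gave 4 calls, adding Nid1 (−0.69, adjusted p = 0.0431) and Mfap5 (−0.64, adjusted p = 0.0467). This comparison shares the jnk1-/- controls with the jnk1-/- ventilation comparison, so a low control value enters both. For Nid1 the control difference was −0.69 and the jnk1-/- ventilation difference 0.95, for Lamb1 they were −0.78 and 1.22, and for Col5a2 −0.96 and 1.27.

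Between ventilated groups, Matn4 alone passed (2.44% of the genes, against 0.525% of probes), higher in jnk1-/- lungs (adjusted p = 9.49e-05). All 4 ventilated wild-type arrays were at the authors' floor for it, so the fitted 3.69 depends on the lower limit and ran from 0.03 to 8.54 over the alternatives, with 0.17 in the authors' values (adjusted p = 0.959). The jnk1-/- arrays lay wholly above the wild-type arrays for Col4a2 and Matn4 (4.88% against 3.08% of probes) and wholly below them for none of the 41 genes (against 3.26% of probes). Col1a1 was higher in ventilated jnk1-/- lungs by 0.78 (interval 0.13 to 1.43, adjusted p = 0.389), and Lamb1 by 0.25 (−0.27 to 0.76). At an unadjusted p of 0.05, Col1a1 and Matn4 were higher (4.88%, against 4.77% of probes) and Fmod lower (2.44%, against 5.35%). For the difference of the ventilation effect, Matn4 again was the only gene to pass (2.44% against 0.392% of probes). This call was lost in 17 and the sign turned in 2 of 23 alternatives, to −0.41 in the authors' values and to −0.56 with a floor at the 25th percentile. At an unadjusted p of 0.05 there were 9 genes (22%, against 6.26% of probes with a more positive and 6.71% with a more negative effect), Col1a1, Col3a1, Col5a2, Nid1, Lama2, Lamb1, Mfap5, Postn and Matn4, each with a more positive effect in jnk1-/- mice. The median of this difference was 0.38 over the 41 genes and −0.11 over all probes.

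Markers of other tissues and cell types moved with these results. All 9 measured skeletal muscle markers were higher in jnk1-/- than in wild-type controls and lower in ventilated than in control jnk1-/- lungs. A summed level is the log2 of the summed unlogged intensities, so the brightest markers weigh most in it. For skeletal muscle it was 13.06 to 13.61 in jnk1-/- controls and 8.07 to 9.08 in the other groups. Of 10 squamous epithelium markers, 8 were higher in jnk1-/- controls and 9 lower after ventilation of jnk1-/- mice, with a summed level of 12.01 to 13.10 in jnk1-/- controls and 7.94 to 9.48 elsewhere. In wild-type lungs none of the skeletal muscle markers passed by limma with ventilation, and of the squamous markers Sprr1a was higher and Lgals7 lower. None of the 9 skeletal muscle and 10 squamous markers was at the authors' floor throughout the jnk1-/- controls. The part of this in the jnk1-/- differences of any of the matrix genes, or in their differences of the ventilation effect, was not tested.

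Of 8 fibroblast markers, 2 rose in jnk1-/- lungs. Of all probes, 2.22% rose and 1.51% fell in wild-type lungs, and 6.72% rose and 5.02% fell in jnk1-/- lungs. Pdgfra, the receptor that marks lung fibroblasts, rose by 2.04 ± 0.35 in jnk1-/- lungs (adjusted p = 0.00452) and had a wild-type difference of 1.15 ± 0.35 (adjusted p = 0.0943). Cd34 rose by 0.75 in jnk1-/- lungs (adjusted p = 0.0389), and the other 6 fibroblast markers did not pass. The summed level of all 8 was 12.30 to 12.86 in control lungs and 13.21 to 13.61 in ventilated lungs of both genotypes. The median difference of the 8 was smaller, at 0.27 in wild-type and 0.29 in jnk1-/- lungs. Of 8 smooth muscle markers, Tagln rose by 0.59 and Cnn1 by 1.0 in jnk1-/- lungs (adjusted p of 0.0389 and 0.0222), and Cnn1 was lower in jnk1-/- than in wild-type controls (−1.17, adjusted p = 0.0314). Neutrophil markers rose with ventilation, 4 of 7 in wild-type and 6 of 7 in jnk1-/- lungs, with summed levels of 10.24 to 12.16 in controls and 13.48 to 14.82 after ventilation. Of 5 mesothelial markers, 2 fell in wild-type and 1 in jnk1-/- lungs, with summed levels of 9.53 to 10.09 in controls and 8.90 to 9.08 after ventilation, alongside the lower Lum. Of 4 endothelial markers, Kdr, a receptor of vascular endothelial growth factor, fell by 0.98 in wild-type lungs (adjusted p = 0.0225) and none passed in jnk1-/- lungs. Their summed level was 11.69 to 12.06 in wild-type controls and 10.60 to 11.18 after ventilation, and 11.11 to 11.55 in jnk1-/- controls and 10.92 to 11.04 after ventilation. This sum was lower without overlap in both genotypes, but the median difference of the 4 markers was −0.58 in wild-type and −0.06 in jnk1-/- lungs. Of 5 lung epithelial markers, Sftpb, surfactant protein B, was higher in jnk1-/- than in wild-type controls by 1.78 (adjusted p = 0.0119) and fell by 1.36 with ventilation of jnk1-/- mice (adjusted p = 0.0137). The summed level of these 5 was 14.52 to 15.40 on all arrays. The part of each in the matrix genes was not tested.

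Other genes of matrix biology were read from 4 lists, whose counts stand against 2.22% of all probes higher and 1.51% lower in wild-type lungs and 6.72% higher and 5.02% lower in jnk1-/- lungs. For collagen processing, with 18 of 24 genes measured, 1 fell in wild-type lungs and 2 rose in jnk1-/- lungs. For TGF-β and platelet-derived growth factor signalling (23 of 24 measured), 1 rose in wild-type and 2 in jnk1-/- lungs. Of the integrins and other matrix receptors (20 of 26 measured), 1 rose in wild-type and 3 in jnk1-/- lungs. Among further ADAMTS proteases and hyaluronan enzymes (17 of 24 measured), 2 rose in jnk1-/- lungs. The medians of the 4 lists were between −0.08 and 0.36 in wild-type and between 0.12 and 0.33 in jnk1-/- lungs.

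The largest of these was Adamts9, a protease that cleaves versican and aggrecan. It lay at 7.73 to 8.62 in wild-type controls, 8.83 to 10.08 in ventilated wild-type lungs, 6.66 to 7.28 in jnk1-/- controls and 8.88 to 11.04 in ventilated jnk1-/- lungs. The groups were apart in both genotypes, and the rise passed in jnk1-/- lungs (3.06 ± 0.49, 8.34-fold, adjusted p = 0.0032) but not in wild-type lungs (1.33 ± 0.49, adjusted p = 0.155). In jnk1-/- lungs Adamts10, which binds fibrillin microfibrils, rose by 1.37 (adjusted p = 0.0255). Itga5, the α subunit of the fibronectin receptor, rose with 2 of its 3 controls at the authors' floor (adjusted p = 0.0293), and Tgfbr3, the TGF-β co-receptor betaglycan, with all 3 at it (adjusted p = 0.0449), so no size is given for either. In wild-type lungs Smad4, the shared mediator of TGF-β signals, and Itgb3, an integrin β subunit, rose (adjusted p of 0.0222 and 0.0411), both with all 3 controls at the authors' floor. P3h2, a collagen prolyl 3-hydroxylase above that floor on every array, fell by 0.90 (adjusted p = 0.0461).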

How the data were processed

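Lung RNA of 14 mice was hybridized to CodeLink UniSet I 20K mouse arrays of 19621 probes, 1 array per mouse. The authors deposited log2 intensities for each array, not normalized between arrays and with a lowest value of −6.86, and a second table of log2 values normalized by cyclic loess, with 24.5% of its values at a floor of 3.12. Spot flags, which the quality filter in the methods needs, are not among the columns.

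Here the unnormalized values were adjusted by cyclic loess over every pair of arrays (R 4.3.3, span 0.7, 3 rounds). In each round the corrections of all pairs were applied together. Values at the lowest value were left out of the curves. These values, and any under the 1st percentile, were then raised to that percentile (−0.63). Above the authors' floor the result correlated with their table at 0.99 or more on every array. Probes were named through GEO's platform annotation, updated by gene identifier to RefSeq symbols. In all, 15353 probes name 1 gene, 91 several and 4177 none. Group means of all 14 arrays were fitted with limma 3.58.1 (lmFit, eBayes). The p-values were adjusted by Benjamini and Hochberg's method across the 19621 probes and called under 0.05, and errors are SE of the fit. The fit was tested on simulated data with changes placed only in probes of a mean log2 intensity above 3. That test does not cover dimmer probes, such as those of Matn4 and Fmod. The number of arrays limits the precision. The 49 genes, the other lists and the markers were chosen with earlier results of these data known. Genes that passed with a log2 difference of at least 1 were given on every array, and of the other matrix genes the 4 largest called differences of each ventilation comparison were named. Promoter windows were read from RefSeq (GRCm38.p6), and 26 of the 41 measured genes had one. Figures were drawn with matplotlib 3.10.9. Alternatives covered the normalization, the floor, a filter on dim probes, the study's Welch test, the arrays fitted, a replicate block, arrays left out, close control pairs averaged and the mean of a gene's probes.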

Additional observations from a re-analysis of the deposited data

Results flagged for a closer look

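In groups of 4 arrays, the 18 genes named with their tests were searched for an array far from the others, in 36 groups, and chance flags about 1 in 20 groups. Loxl1 on ventilated wild-type array 3 was at 9.97, below the next array at 10.35, a gap of 0.85 of the group's range. Matn4 on ventilated wild-type array 4 was at −0.02 while the other arrays were at the lower limit of −0.63, a gap of 1 of the range, because the other values are equal by that limit. The ventilation difference of Matn4 also differed between genotypes by 2.53 ± 0.47 (limma, adjusted p = 0.0481), but all 4 ventilated wild-type arrays behind it were at the floor of the authors' table. The call was lost in 17 of 23 alternatives and the sign turned in 2, to −0.41 in the authors' values and −0.56 with the higher floor.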

How the results depend on the processing

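With the methods' t-test on the same values, 0 genes passed after Benjamini-Hochberg adjustment in any of 4 comparisons, against 8, 16, 3 and 1 at an unadjusted p of 0.05 (wild-type ventilation, jnk1-/- ventilation, controls, ventilated groups), which are 19.5%, 39%, 7.32% and 2.44% of the genes where 17.2%, 18.7%, 11.7% and 8.06% of all probes passed. The limma counts were 4, 11, 2 and 1, and 1 for the difference of the ventilation effect. Fitting only the arrays compared gave 2, 6 and 0 for the first 3 comparisons, where the 6 kept 4 of the 11 genes and added Lamc1 and Eln. Averaging the closest control pairs gave 2, 6 and 0, and 0 for the difference, with no gene added. The SD between arrays of these pairs was 0.377 (wild-type controls 2 and 3) and 0.326 (jnk1-/- controls 1 and 2), against 0.404 to 0.691 for the other pairs of a group. The replicate numbers did not pair the samples (correlations of −0.05 to 0.08), and with them as a block the counts were 2, 7 and 0, and 0 for the difference. The 7 kept 6 of the 11 genes and added Eln. The authors' values gave 5, 14, 4, 0 and 1. They added Col4a1 and Fbln5 and lost Matn4 in wild-type lungs, added Lama4, Fbln5, Loxl1 and Postn and lost Fmod in jnk1-/- lungs, and called Lama2 in place of Matn4 for the difference. A floor at the 25th percentile gave 4 for the controls, 0 between ventilated groups and 0 for the difference. Without the dimmest 25% of probes, which leaves 31 of the 41 genes, the last 2 counts were 0, and with no floor or fast cyclic loess the difference count was 0. Leaving out each array in turn gave 2 to 5, 5 to 14, 0 to 2, 1 to 1 and 0 to 2. The 5 came without jnk1-/- control 2, where Col1a1, Col5a1, Col5a2, Col4a2, Lum and Fmod no longer passed, and the 0 for controls came without wild-type control 2 or jnk1-/- control 2. Leaving out wild-type controls 2 and 3 together, chosen after seeing the data, gave 4, 12, 2, 1 and 1, but of these only 2, 9, 1, 1 and 0 were genes called with all arrays: Lum and Mfap5 (wild-type), Col5a1 and Fmod (jnk1-/-), Lama2 (controls) and Matn4 (difference) were lost. The Matn4 difference of the ventilation effect turned to −0.41 in the authors' values and −0.56 with the higher floor. Lox passed in both genotypes, and Col4a1 and Lama2 in jnk1-/- lungs, under every alternative except the methods' t-test. Of the other calls in jnk1-/- lungs, Col5a1 was lost in 20, Lum in 9, Col5a2 in 8, Col1a1 in 6, and Col4a2, Lamb1 and Nid1 in 2 of 26 alternatives, and Fmod in 20 of 25. In wild-type lungs Mfap5 was lost in 15 and Lum in 13 of 26 and Matn4 in 3 of 25, and between the controls Lama2 was lost in 14 and Postn in 8 of 26.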
